A study of Mus musculus with 11 samples.

Results

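Genes of alternative activation and of cytokine restraint were followed in mouse microglia, the resident macrophages of the brain, either freshly sorted or held in culture. The 10 members were taken by name: Il4ra, Arg1, Retnla, Chil3 and Nos2 from the arginine and IL-4 side, Il10 and Il1rn among the secreted restraints, and Socs1, Socs2 and Socs3 among the intracellular ones. Of the 10, 9 had a probe on the array that RefSeq ties to the symbol. The exception was Socs3, which is therefore only named. Of these 9, 8 passed the filter on dim signals and were tested among 19555 genes, and Chil3 did not pass.

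IL-4 and IL-13 bind receptors that share the chain encoded by Il4ra and act through STAT6, which drives Arg1, Retnla and Chil3 in mouse macrophages. Arginase 1 and the inducible nitric oxide synthase encoded by Nos2 use the same substrate, arginine, so the pair has long served as a readout of alternative against classical activation. IL-10 and the IL-1 receptor antagonist encoded by Il1rn restrain inflammation from outside the cell, whereas SOCS proteins are induced by JAK-STAT signaling and switch it off from within.

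The data were 11 one-color Agilent arrays of C57BL/6N microglia in 4 groups. A_FACS (2 arrays) held cells of adult females of 12 to 24 weeks, and NB_FACS (3 arrays) held cells of newborns of both sexes at postnatal day 1 to 3; in both, cells with intermediate CD45 and high CX3CR1 were sorted, after enzymatic digestion without transcription inhibitors. NB_Control (3 arrays) and NB_Stim (3 arrays) held newborn microglia that grew for weeks in mixed glial flasks fed with 20% L-929 conditioned medium, a source of M-CSF, were shaken off, and then spent 1 day in DMEM/F12 with 10% fetal bovine serum. To NB_Stim 3 human proteins were added for that day, each at 100 ng/mL: CX3CL1, IL-34 and TGF-β1. Culture against sorted cells is thus also flask growth and shaking against digestion and sorting shortly before RNA isolation. The paper states that its sorted profiles probably already include some changes caused by isolation. Adult against newborn is also female against both sexes. It is also perfused adults, with brains pressed through a strainer, against newborns with pipetted brains for which no perfusion is described. None of these can be told apart. No group received IL-4, IL-13 or IL-10 as a supplement.

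A level below is the log2 of the quantile normalized signal, averaged over the probes of a gene; it can be compared between arrays but not between genes. "Called" means an adjusted p under 0.05 in limma with Benjamini-Hochberg adjustment over all genes, in a model that shares its spread among the 4 groups. On each array 66.8% to 80.5% of the probes were well above background, and no spot was saturated. By the scan identifier in the file headers, arrays fell into 2 sets, here called slides, and slide and scan cannot be told apart. Slide 2 held replicate 3 of each newborn group and was brighter, with a 75th percentile signal of 446 to 511 against 174 to 316 on slide 1. Of the 10 microglia markers listed, 9 had a probe, and these 9 were well above background on every array; their mean level was 13.40 to 13.67 in A_FACS, 12.27 to 12.50 in NB_FACS, 9.41 to 10.22 in NB_Control and 11.54 to 11.67 in NB_Stim. Fibroblast markers had a mean level of 9.41 to 10.04 in the cultured arrays and 3.22 to 6.73 in the sorted ones. In bulk RNA, fewer cells of a type and less RNA per cell cannot be told apart.

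Over the 4 groups, the F test called 3 of the 8 tested members, Arg1, Il1rn and Socs2, at adjusted p of 0.0052, 0.00308 and 0.00337, where 48.8% of all genes were called. In the culture comparison, NB_Control against NB_FACS, 0 of 8 members were called against 29.7% of all genes (limma; 2 had an unadjusted p under 0.05, and Tukey's test over the 4 groups called 0). In the cytokine comparison, NB_Stim against NB_Control, 1 of 8 was called, Socs2, against 3.41% of all genes. NB_Stim against NB_FACS called 2 of 8, Il1rn lower and Socs2 higher, against 31.1%. Adult against newborn sorted cells called 3 of 8, Arg1, Il10 and Il1rn, all lower in the adult, against 22.7%. The median log2 difference of the 8 members was -0.04 for culture, 0.16 for the cytokines, 0.21 for stimulated culture and -0.14 for age, beside 0.09, -0.00, 0.11 and -0.01 over all genes.

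**Figure D1:**
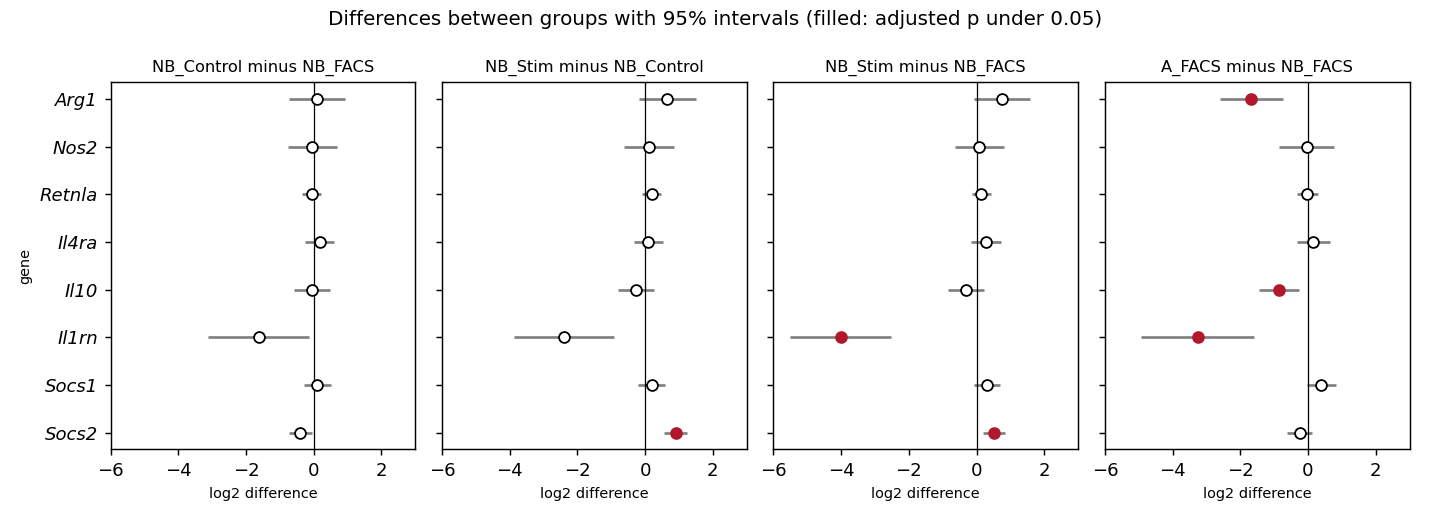
Log2 difference of each tested member in the 4 comparisons (x axis, log2 units) with its 95% interval from limma; filled points have an adjusted p under 0.05. Il1rn lies at -1.62, -2.40, -4.02 and -3.26 from left to right, Socs2 is called at 0.91 and 0.52, and Nos2 and Retnla stay within 0.20 of zero.

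Socs2, a suppressor known for its action on growth hormone and STAT5 signaling, was the only member called for the cytokine comparison. Its level was 7.06, 6.88 and 6.86 in the 3 NB_Control arrays. It was 7.70, 7.74 and 8.09 in NB_Stim. It was 7.33, 7.24 and 7.41 in NB_FACS, and 6.92 and 7.24 in A_FACS. All 3 stimulated arrays thus lay above all 8 other arrays. Socs2 was 1.88-fold higher in NB_Stim than in NB_Control (log2 difference 0.91 ± 0.15 SE, adjusted p = 0.0103 in limma) and 1.43-fold higher than in NB_FACS (0.52, adjusted p = 0.0267). The latter was not called without NB_FACS replicate 1 (0.0676), NB_FACS replicate 2 (0.0935) or NB_Stim replicate 3 (0.0666), with only the 2 groups compared (0.0602), with replicates averaged (0.0647) or after Tukey's test with Benjamini-Hochberg adjustment (0.098). The difference between NB_Control and NB_FACS was -0.40 (95% interval -0.74 to -0.06) and was not called, at an adjusted p of 0.0782; with the slide as a block it was called, at 0.045. Without NB_Control replicate 2 the cytokine difference was 0.88 at an adjusted p of 0.0534, and with cultured replicates 1 and 2 of each group averaged into 1 sample it was 0.99 at 0.105. Within slide 1 the cytokine difference was 0.75 and on slide 2, with 1 array a group, 1.24.

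The gene-level value of Socs2 is a mean over 3 probes that did not behave alike. The first was designed to the curated transcript NM_007706.4 and the others to the predicted transcripts XM_006513515.1 and XM_006513517.1. Their first 30 bases, as the scanner files list them, are shown because the result depends on which probe is read.
NM_007706.4 probe (49 bases in all): ttccgttaagctgaccatgcttgtatttat
XM_006513515.1 probe (46 bases in all): cagtcagaagaccctgtgcctgtggagtta
XM_006513517.1 probe (54 bases in all): tgccccactctccaggattaccccttttgt
The probe to NM_007706.4 read 8.83, 8.88 and 8.79 in NB_FACS and 7.81, 7.82 and 7.61 in NB_Control. It read 9.74, 9.64 and 9.90 in NB_Stim, and 7.57 and 8.68 in A_FACS. The 3 newborn groups were separate from each other on this probe. In a fit over all 44727 single probes it fell by 1.09 on the log2 scale in NB_Control against NB_FACS (adjusted p = 0.00891, limma; 25.6% of probes called). It rose by 2.01, or 4.04-fold, in NB_Stim against NB_Control (adjusted p = 0.00262; 2.49% called). NB_Stim was also above NB_FACS, by 0.93 (adjusted p = 0.0187; 26.6% called). The adult difference was -0.71 and was not called (adjusted p = 0.102; 19.3% called), and the 2 adult arrays had an SD of 0.79.

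The fall and the rise of the NM_007706.4 probe stayed past the threshold with each array left out in turn, with differences of -1.12 to -1.02 and 1.94 to 2.07 and adjusted p of up to 0.034 and 0.0163 (limma). Unlike at the gene level, these fits kept the normalization and filter made with all arrays. Averaging replicates and Tukey's test with Benjamini-Hochberg adjustment, where the gene lost its cytokine call, were not run on single probes. Within slide 1 the fall and the rise were -1.04 and 1.87, and on slide 2 -1.18 and 2.29. The difference from NB_FACS was 0.84 within slide 1, at an adjusted p of 0.079, and its adjusted p reached 0.0527 with 1 array left out. The probe to XM_006513515.1 read 6.33, 5.99 and 5.88 in NB_Control and 6.41, 6.40 and 7.21 in NB_Stim. Its cytokine difference was 0.61 and was not called (adjusted p = 0.289), and 0.25 within slide 1. The probe to XM_006513517.1 read 7.03, 6.82 and 7.09 in NB_Control and 6.94, 7.18 and 7.17 in NB_Stim, a difference of 0.12 (adjusted p = 0.92). Neither predicted-transcript probe was called in any of the 4 comparisons in the fit over all arrays.

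**Figure D2:**
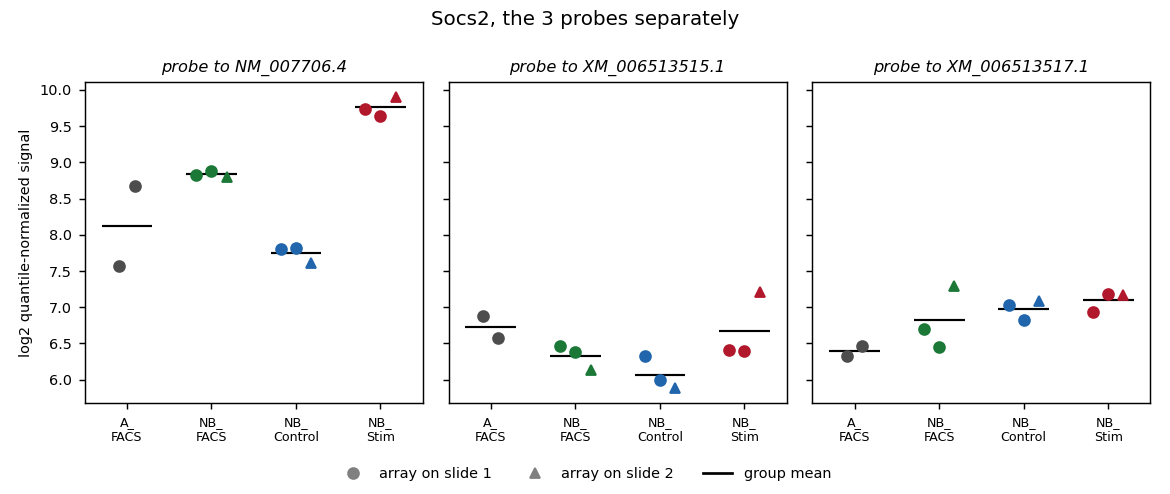
Level of the 3 Socs2 probes (y axis, log2 quantile normalized signal) on each array by group; circles are slide 1, triangles slide 2 and bars group means. On the NM_007706.4 probe the group means are 8.12, 8.83, 7.75 and 9.76 from left to right, whereas on the XM_006513517.1 probe they run from 6.40 to 7.10.

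Socs1, which blocks JAK kinases and is induced by interferons and by IL-4, was not called in any comparison. Its level was 9.86 and 9.58 in A_FACS and 9.45, 9.32 and 9.21 in NB_FACS. It was 9.35, 9.39 and 9.56 in NB_Control and 9.62, 9.95 and 9.32 in NB_Stim. The adult arrays lay above the newborn sorted ones, by 0.40 (95% interval -0.04 to 0.83, adjusted p = 0.183), and the cultured groups overlapped each other (0.20, -0.19 to 0.59, adjusted p = 0.706). On slide 1 the stimulated arrays were 0.41 above the control arrays and on slide 2 the stimulated array was 0.24 below. Of the further SOCS genes Cish, Socs4, Socs5, Socs6 and Socs7, limma called 0 of 5 for the cytokines against 3.41% of all genes (1 had an unadjusted p under 0.05). The culture comparison called Socs6 higher (0.90) and Cish (-2.43) and Socs7 (-0.71) lower, against 29.7% of all genes. Whether Socs2 differed from these genes in its difference was not tested.

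Il1rn, the antagonist that occupies the IL-1 receptor without signaling, had the widest range of the members. Its level was 10.91, 11.07 and 11.48 in NB_FACS. It was 9.13, 8.95 and 10.52 in NB_Control and 7.34, 6.91 and 7.17 in NB_Stim. The 3 newborn groups did not overlap and were ordered NB_FACS, NB_Control, NB_Stim. The 2 adult arrays read 6.38, below every other array, and 9.40, within the range of NB_Control. Il1rn was 16.2-fold lower in NB_Stim than in NB_FACS (log2 difference -4.02 ± 0.67 SE, adjusted p = 0.00135), and was called under each alternative that gave a test, leaving out each array in turn included. Each step by itself was not called: NB_Control was 3.07-fold lower than NB_FACS (-1.62, 95% interval -3.11 to -0.13, adjusted p = 0.0997), and NB_Stim 5.27-fold lower than NB_Control (-2.40, -3.89 to -0.91, adjusted p = 0.0952).

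The adult arrays bear on these steps because the model shares its spread among groups, and the SD of the 2 adult values of Il1rn was 2.13, against 0.21 to 0.86 in the newborn groups. Without A_FACS replicate 1 the culture and cytokine steps were called at adjusted p of 0.014 and 0.0154, and without A_FACS replicate 2 at 0.0122 and 0.0127. With only the 2 groups compared in the model they were called at 0.0307 and 0.0469, and with array weights at 0.000421 and 0.00182. Leaving out any single newborn array gave no call for either step, at adjusted p of 0.0516 to 0.263 and 0.117 to 0.27 (limma). Neither step was called with the slide as a block (0.0806 and 0.0626) or with cultured replicates 1 and 2 averaged (0.294 and 0.369). Within slide 1 the steps were -1.95 and -1.92, and on slide 2 -0.95 and -3.36. Both steps had the same sign on both slides, and neither was called within slide 1 (adjusted p of 0.11 and 0.268). The adult level was 9.60-fold below the newborn one (-3.26 ± 0.74 SE, adjusted p = 0.0117); without A_FACS replicate 1 the difference was -1.76 and was not called (0.0798), and without A_FACS replicate 2 it was -4.80.

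Il1rn was read by 1 probe, designed to the predicted transcript XM_006497727.1, which begins atgaaccctctctttggcttagaaggcact and has 53 bases. RefSeq gives Il1rn 3 start windows, each of 250 bases before and 50 after a transcription start in GRCm38.p6, and the array does not tell transcripts from these starts apart. Of the 10 members, 6 had such windows (Retnla, Chil3, Il4ra, Il1rn, Socs1 and Socs3), and Arg1, Nos2, Il10 and Socs2 had none in the table. The windows were searched on both strands for TTCNNNGAA, the core recognised by most STAT factors, for TTCNNNNGAA, the spacing that STAT6 prefers, and for CAGAC, a SMAD element, since TGF-β1 acts through SMADs. The first 2 read the same on either strand, and no match overlapped another. Over 32851 windows of the same length, 8.3%, 6.95% and 49.6% held each. The upstream Il1rn window and the most downstream of the 3 are shown with matches in capitals.
Il1rn, chr2:24336610-24336909, plus strand: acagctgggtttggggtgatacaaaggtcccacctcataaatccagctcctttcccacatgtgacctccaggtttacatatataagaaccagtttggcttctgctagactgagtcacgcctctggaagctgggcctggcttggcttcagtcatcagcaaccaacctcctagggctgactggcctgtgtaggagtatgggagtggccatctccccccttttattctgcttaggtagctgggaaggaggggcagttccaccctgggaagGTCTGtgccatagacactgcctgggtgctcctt
Il1rn, chr2:24345121-24345420, plus strand: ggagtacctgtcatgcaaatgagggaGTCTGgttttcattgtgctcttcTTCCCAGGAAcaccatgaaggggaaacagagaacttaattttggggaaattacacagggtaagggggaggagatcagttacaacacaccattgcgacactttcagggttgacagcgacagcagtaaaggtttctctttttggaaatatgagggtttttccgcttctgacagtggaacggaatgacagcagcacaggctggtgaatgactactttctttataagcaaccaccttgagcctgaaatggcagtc
Each of the 3 Il1rn windows held 1 match to CAGAC, and the 2 overlapping downstream windows held the same match to TTCNNNNGAA. These matches describe the letters of the windows and not binding.

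Other cells can carry Il1rn, so their markers were read on the same arrays. Border macrophage markers (8 genes, such as Mrc1, Lyve1 and Pf4) had a mean level of 4.63 and 6.25 in A_FACS replicates 1 and 2, in which Il1rn read 6.38 and 9.40. Neutrophil, monocyte, fibroblast (3.22 and 4.10), astrocyte, lymphocyte, endothelial and erythroid markers were also higher in replicate 2. Microglia markers and those of mast cells, basophils and eosinophils were lower there. Replicate 2 had 78.1% of its probes well above background, against 70.3% in replicate 1. Border macrophage markers were at 8.26 to 9.53 in NB_FACS, 8.81 to 9.53 in NB_Control and 6.98 to 7.51 in NB_Stim, with 5 to 8 of the 8 well above background on every array. Neutrophil markers (8 with a probe) were at 5.57 and 6.50 in the 2 adult arrays, 5.52 to 7.98 in NB_FACS, 6.27 to 6.61 in NB_Control and 6.27 to 6.73 in NB_Stim, and limma called 0 of the 8 in any comparison (1 had an unadjusted p under 0.05, for age). Monocyte markers other than Chil3 (4 with a probe) were at 7.74 and 8.56 in the adult arrays, 6.82 to 7.21 in NB_FACS, 6.49 to 7.10 in NB_Control and 6.11 to 6.26 in NB_Stim. Culture called 2 of these 4 higher and 1 lower, against 29.7% of all genes. The cytokines called 1, Plac8 (-3.12), against 3.41%. Mast cell, basophil and eosinophil markers (4 tested) were at 5.90 and 5.78 in the adult arrays and 5.90 to 6.60 in NB_FACS. They were at 7.35 to 7.74 in NB_Control and 7.32 to 7.86 in NB_Stim, and culture called 1 of the 4, Mcpt8 (5.16), against 29.7% of all genes. In culture 3 of the 8 border macrophage markers were called higher and 3 lower, against 29.7% of all genes, so their mean hides changes in both directions. The cytokines called 1 of the 8, Mrc1 (-5.24), against 3.41% of all genes. The list median was -1.61, and 5 had an unadjusted p under 0.05 (limma). NB_Stim against NB_FACS called 2 higher and 4 lower, against 31.1% of all genes. Erythroid markers (6 genes) were at 8.06 and 9.05 in the adult arrays, 10.97 to 11.68 in NB_FACS, 4.13 to 4.35 in NB_Control and 4.05 to 4.59 in NB_Stim. Endothelial markers (7 genes) were at 9.11 to 9.82 in A_FACS, 8.35 to 8.82 in NB_FACS, 5.26 to 5.90 in NB_Control and 5.93 to 6.09 in NB_Stim. The part of these cells in the Il1rn result was not tested.

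Il10, the cytokine itself, was called only between adult and newborn sorted cells. Its level was 6.06 and 6.11 in A_FACS. It was 6.86, 6.61 and 7.38 in NB_FACS. It was 6.77, 6.58 and 7.36 in NB_Control and 6.53, 6.61 and 6.75 in NB_Stim. Both adult arrays lay below the other 9, and in each newborn group the slide 2 array was the highest. Il10 was 1.82-fold lower in the adult (-0.86 ± 0.27 SE, adjusted p = 0.0422), a call that lay close to the threshold: scaling each array to its 75th percentile gave -0.76 at 0.0731, the fit of the 2 groups alone gave 0.0837, and leaving out single arrays gave 0.0215 to 0.187. The adult difference was also not called without the filter on dim probes (0.0583), with array weights (0.0769) or with cultured replicates 1 and 2 averaged (0.0762). With the slide as a block it was -0.70 at 0.0109 and within slide 1 -0.65 at 0.0127. Neither culture (-0.05, 95% interval -0.58 to 0.48) nor the cytokines (-0.27, -0.80 to 0.26) gave a call.

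Arg1 separated adult from newborn cells. Its level was 6.78 and 6.84 in A_FACS. It was 7.97, 8.49 and 8.98 in NB_FACS. It was 8.96, 8.97 and 7.83 in NB_Control and 9.11, 8.81 and 9.80 in NB_Stim. The 2 adult arrays lay below all 9 newborn arrays, and the 3 newborn groups overlapped. Arg1 was 3.19-fold lower in A_FACS than in NB_FACS (-1.67 ± 0.42 SE, adjusted p = 0.0177). The difference was -1.93 to -1.42 with single arrays left out, and it was not called without A_FACS replicate 1 (0.108), A_FACS replicate 2 (0.0726) or NB_FACS replicate 3 (0.0512). Within slide 1 it was -1.42 at 0.00265.

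In culture the 2 slides gave opposite signs for Arg1. On slide 1, NB_Control was 0.73 above NB_FACS and was called in a fit of the 8 arrays of that slide (adjusted p = 0.0238). On slide 2 the control array was 1.15 below the sorted one. Over both slides the difference was 0.10 (95% interval -0.73 to 0.94) and was not called. NB_Stim was 0.76 above NB_FACS (-0.08 to 1.59, adjusted p = 0.158), by 0.73 on slide 1 and 0.82 on slide 2, and was called within slide 1 (0.0218). Between NB_Stim and NB_Control the difference was 0.66 (-0.18 to 1.49, adjusted p = 0.487), -0.00 on slide 1 and 1.97 on slide 2.

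Nos2, the arginine-consuming counterpart of Arg1, differed by less than the spread between arrays everywhere. Its level was 9.22 and 9.01 in A_FACS and 8.91, 8.76 and 9.78 in NB_FACS. It was 8.87, 8.73 and 9.74 in NB_Control and 9.01, 9.13 and 9.55 in NB_Stim. The 3 slide 2 arrays were the 3 highest of the 11, whatever the group. Differences between groups were -0.04 for culture, 0.12 for the cytokines, 0.08 for stimulated culture and -0.03 for age, with 95% intervals reaching -0.77 to 0.69, -0.61 to 0.85, -0.65 to 0.81 and -0.85 to 0.78.

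The IL-4 targets Retnla, a secreted resistin-like protein, and Chil3, a chitinase-like protein, gave no call. Retnla was at 6.78 and 6.63 in A_FACS, 6.88, 6.64 and 6.64 in NB_FACS, 6.61, 6.64 and 6.72 in NB_Control and 6.90, 6.93 and 6.73 in NB_Stim. Its whole range over the 11 arrays was thus narrower than that of any other tested member. The 3 stimulated arrays lay just above the 3 control arrays, by 0.20 (95% interval -0.08 to 0.48, adjusted p = 0.541). Chil3 was well above background on 4 of the 11 arrays, A_FACS replicate 2 and the 3 arrays of slide 2, and on none of the other 7. In no group were all arrays above background, and it was not tested. Of the windows of the other members, those of Chil3, Il4ra, Socs1 and Socs3 held 0 matches to TTCNNNNGAA, and those of Chil3 and Socs3 held 1 match each to TTCNNNGAA. The Retnla window is shown because it is, beside those of Il1rn, the one with a match to TTCNNNNGAA, in capitals.
Retnla, chr16:48842359-48842658, plus strand: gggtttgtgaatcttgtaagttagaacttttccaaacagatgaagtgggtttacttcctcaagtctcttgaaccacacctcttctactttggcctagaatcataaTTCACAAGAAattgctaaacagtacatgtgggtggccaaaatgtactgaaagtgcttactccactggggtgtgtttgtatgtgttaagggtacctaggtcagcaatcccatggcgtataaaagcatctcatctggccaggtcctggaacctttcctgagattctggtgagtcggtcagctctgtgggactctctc

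Il4ra, the receptor chain upstream of these genes, was well above background on all arrays and was not called. It was at 10.65 and 10.42 in A_FACS and 10.45, 10.36 and 10.32 in NB_FACS. It was at 10.74, 10.80 and 10.11 in NB_Control and 10.65, 10.84 and 10.47 in NB_Stim. The 3 stimulated arrays lay above the 3 newborn sorted ones, by 0.27 (95% interval -0.16 to 0.71, adjusted p = 0.327). NB_Control differed from NB_FACS by 0.17, which was 0.37 on slide 1 and -0.21 on slide 2.

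**Figure D3:**
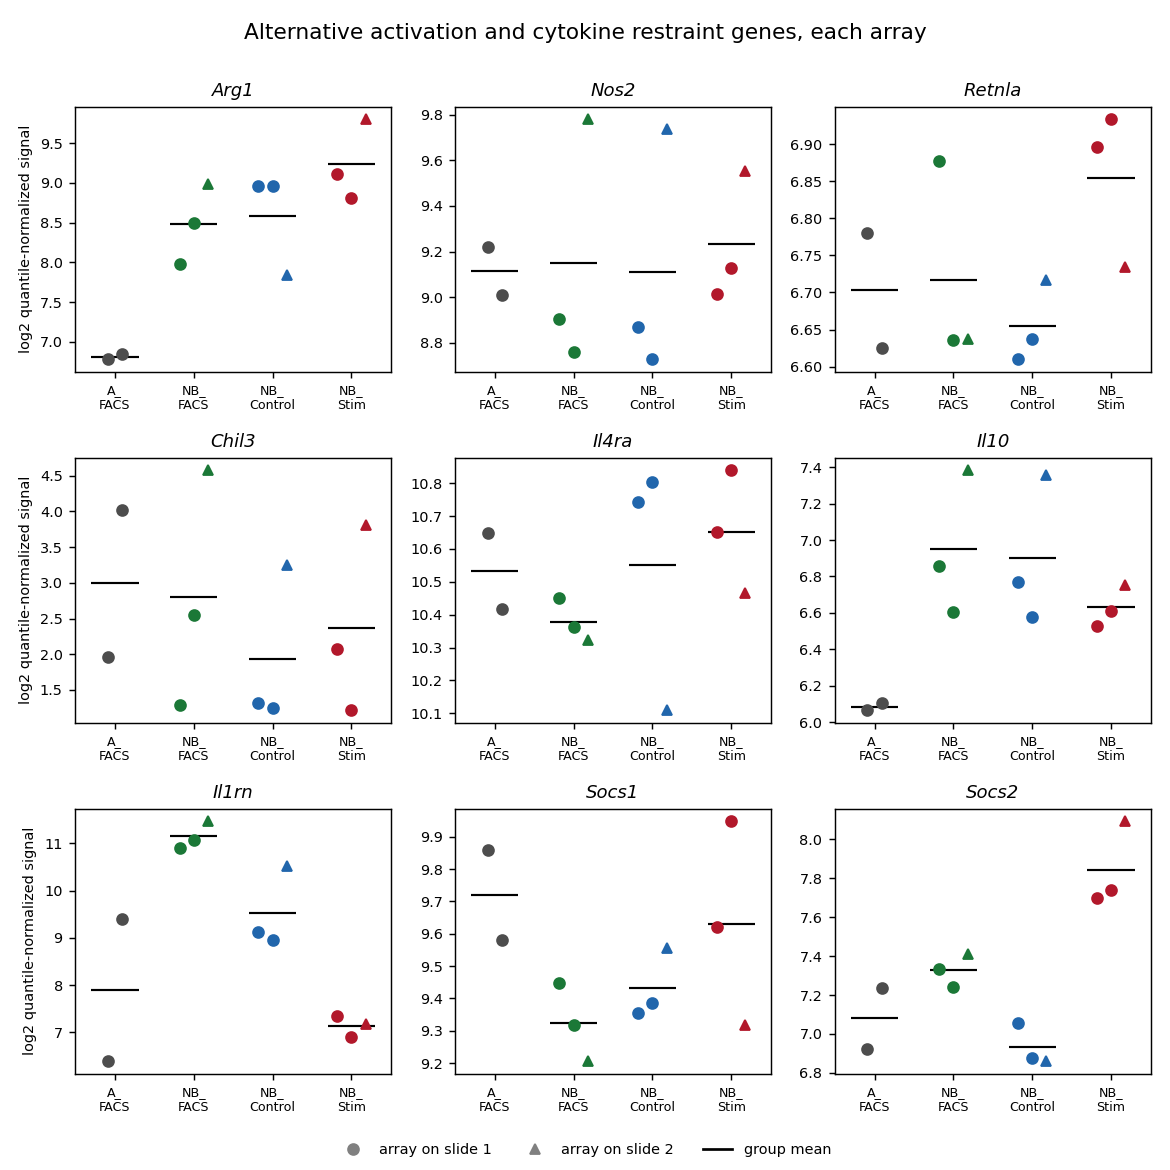
Level of the 9 members with a probe (y axis, log2 quantile normalized signal, each panel on its own scale) on the 11 arrays by group; circles are slide 1, triangles slide 2 and bars group means. Socs2 is highest in the 3 NB_Stim arrays and Il1rn in the 3 NB_FACS arrays, Arg1 and Il10 are lowest in the 2 A_FACS arrays, and for Nos2 the 3 highest arrays are those of slide 2.

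Groups that do not overlap are common in these data and weigh little by themselves. In the culture comparison 2 of the 8 members did not overlap (Il1rn and Socs2) against 44.2% of all genes. It was 3 of 8 for the cytokines (Socs2, Il1rn and Retnla) against 24%, 3 of 8 for stimulated culture (Socs2, Il1rn and Il4ra) against 43.5%, and 5 of 8 for age (Arg1, Il10, Il1rn, Socs1 and Socs2) against 51.2%.

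Of 10 further ligands, receptors and signaling genes of IL-4 and IL-13, 8 were tested, and Il4 and Il13ra2 did not pass the filter. For the cytokines limma called 0 of the 8 against 3.41% of all genes (3 had an unadjusted p under 0.05). Culture called 1 higher, Tyk2 (0.41), and 3 lower, against 29.7% of all genes. The kinase gene Jak3 (-1.32) and the adaptor gene Irs2 (-0.54) led those lower. Of 20 further alternative activation genes tested, culture called 6 higher and 7 lower, against 29.7% of all genes. Among them the scavenger receptors Cd36 (4.36) and Msr1 (3.89) were higher and the transcription factors Klf4 (-4.82) and Egr2 (-3.55) lower. The cytokines called 2 of the 20 higher, Ch25h (2.80) and Flt1 (2.78), and 4 lower, against 3.41% of all genes. The mannose receptor gene Mrc1 (-5.24 ± 0.19 SE) and Pparg (-4.59) led those lower. Mrc1 is also a border macrophage marker and Flt1 an endothelial one. The median of this list was 0.28 for culture and -0.47 for the cytokines.

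Among 14 classical activation genes, culture called 3 higher and 3 lower, against 29.7% of all genes. Il6 (2.30) and the cyclooxygenase gene Ptgs2 (1.82) led those higher, and Cxcl10 (-7.31) and Tnf (-4.05) those lower. The cytokines called 1 of the 14, Il6, which fell by 2.85 on the log2 scale, against 3.41% of all genes called. Of 15 genes of arginine and polyamine metabolism, culture called 3 higher and 4 lower, against 29.7% of all genes. The mitochondrial arginase gene Arg2 was 3.64 higher and Ass1, which rebuilds arginine, 1.62 higher, whereas Odc1, which makes polyamines from the product of arginase, fell by 1.77 and Gch1 by 1.13 on the log2 scale. For the cytokines limma called 0 of these 15 against 3.41% of all genes (5 had an unadjusted p under 0.05).

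Among 10 receptors and response genes of IL-10, culture called 4 higher and 2 lower, against 29.7% of all genes. Hmox1 (1.26) led those higher, and the receptor gene Il10ra (-0.90) and Stat3 (-0.83) were lower. The cytokines called 1 of the 10, the transcription factor gene Maf, which fell by 1.77 on the log2 scale, against 3.41% of all genes called. Among 13 genes of the IL-1 family and its inhibitors other than Il1rn, culture called 4 higher and 6 lower, against 29.7% of all genes. This list also held receptors and the processing and signaling genes Casp1, Nlrp3, Myd88 and Irak4, which are not family members. The agonist gene Il1a fell by 3.32 on the log2 scale (adjusted p = 2.57e-06, limma), and Nlrp3, which was not well above background on any NB_Control array, was at least 5.87-fold lower. Il33 (3.23) and Irak4 (1.37) were higher. The median of this list was -0.60 for culture and -1.08 for stimulated culture, beside 0.09 and 0.11 over all genes. The cytokines called 1 of the 13, Casp1 (-1.37), against 3.41% of all genes.

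Of 18 JAK-STAT genes and phosphatases, culture called 4 higher, led by Stat2 (1.76), and 6 lower, led by Jak2 (-1.73) and Jak3, against 29.7% of all genes. Of 13 receptors upstream of SOCS proteins, culture called 3 higher and 1 lower, against the same share. Osmr (3.46) and the growth hormone receptor gene Ghr (1.32) led those higher, and Il6st (-0.56) was lower. For the cytokines limma called 0 of these 18 and 0 of these 13, against 3.41% of all genes (4 and 1 had an unadjusted p under 0.05). Of 16 other brakes on cytokine signaling, culture called 10 lower and 4 higher, against 29.7% of all genes. Tnfaip3 (-4.13) and Dusp1 (-3.27) led those lower, and Cd200r1 (2.40) and Tnip3 (1.40) those higher. Whether digestion of the sorted cells without transcription inhibitors contributes to these differences was not tested. The median of this list in culture was -1.59, the farthest from zero of the 10 related lists; among the marker lists those of erythroid, fibroblast, microglia and endothelial genes lay farther. The cytokines called 4 lower, among them Cd200r1 (-1.50) and Nfkbie (-1.17), and none higher, against 3.41% of all genes. In adult against newborn cells limma called 3 of the 16 higher and 0 lower, against 22.7% of all genes (8 had an unadjusted p under 0.05).

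**Figure D4:**
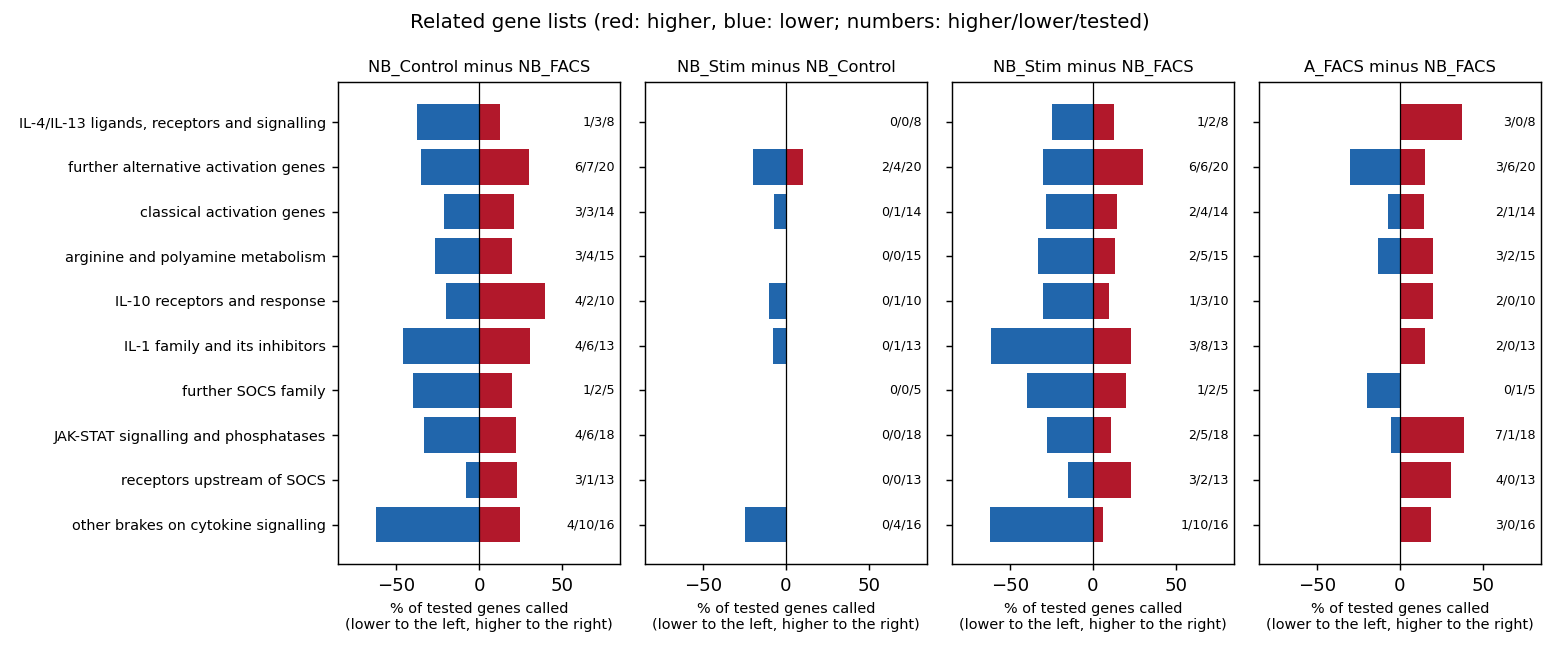
Percent of the tested genes of each related list that were called higher (red, to the right) or lower (blue, to the left) in the 4 comparisons; the numbers give higher, lower and tested genes. Other brakes on cytokine signaling have 10 of 16 genes lower in culture, and 8 of the 10 lists have at most 1 gene called for the cytokines and none higher. Over all genes, 29.7% were called in culture and 3.41% for the cytokines.

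The genes closest in pattern to the called members, by the mean absolute difference of centered levels over the 11 arrays among 9548 other genes called by the F test, were Ago1 (0.137) and Luzp1 (0.138) for Socs2. For Arg1 they were Ctnna2 (0.223) and Asrgl1 (0.227). For Il1rn they were Spaca9 (0.293) and Dlgap5 (0.554). Spaca9 had group means of 4.60 in A_FACS, 7.72 in NB_FACS, 6.25 in NB_Control and 4.17 in NB_Stim. These genes were picked for their likeness on the same arrays, so a like order of groups follows from the choice and is no separate result.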

How the data were processed

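RNA of 11 samples was hybridized by the study's provider to Agilent ArrayXS_Mouse_V1 arrays. Per the file headers, the deposited intensity values are the processed signals of Agilent Feature Extraction 11.5.1.1, background subtracted and not normalized between arrays; of 62927 shared entries of the deposited value table of the series, which holds the same intensity values, 0 differed by more than a relative 1e-05. Of 62976 spots, 1439 controls were left out. Spots with an outlier flag were dropped, log2 signals were averaged per probe, and 138 probes were removed because some array had only flagged spots for them. All arrays were quantile normalized, as the study's methods state. A probe passed the filter (44727 did) where 1 or more groups had it well above background throughout. RefSeq accessions were matched to symbols without versions (GRCm38.p6; 36264 probes), and probes were averaged to 19555 genes. The deposited probe sequences and chromosome fields give no position.

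limma 3.58.1 in R 4.3.3 fitted 1 mean per group (7 residual and 2.69 prior degrees of freedom), with Benjamini-Hochberg adjustment per comparison over all genes. It was also run on simulated arrays with independent noise, the same spread in every group and no slide effect. That run cannot show how the fit handles unequal spread or the slide. The study describes its samples as independent biological replicates. The comparisons share samples: NB_FACS enters 3 of the 4 and NB_Control and NB_Stim 2 each. The members and lists were chosen with earlier results of these data known. All members are named; of each further list, at most 2 called genes with the largest rise and 2 with the largest fall in the culture and cytokine comparisons, and for each member called by the F test the 2 genes nearest in pattern. A gene dim on all arrays of a group is given as a bound against the higher of its own and the lowest level well above background on each array.

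Replicate numbers were checked for pairing by the correlation of deviations from group means. Every pair of newborn arrays with the same number had r of 0.112 to 0.489. The main fit used no pairing, and a fit with the number as a block was run as an alternative. Replicate 3 is also the slide 2 array of each group, and pairs with different numbers on slide 1 had 0.185 to 0.364, so number and slide are not separated by this check; adult and newborn arrays of the same number had 0.168 and -0.07. The slide comes from the scan identifier in the headers, so slide and scan cannot be told apart. The number of arrays limits the precision.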

Additional observations from a re-analysis of the deposited data

How the results depend on the processing

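With 2 to 3 arrays a group, leaving out single arrays changed calls in each comparison. Over the 8 tested members, 876 values were recomputed with a test: 778 kept direction and side of the threshold, 24 passed it anew, 34 no longer passed it and 40 changed sign. Slide 2, with 1 array a group, allowed no test; there 18 of 24 differences had the same sign and 6 the opposite one. All values that changed sign belong to differences that were not called. The cause of these changes was not tested; settings that leave out, average or set aside arrays also use fewer samples by construction. Chil3 was above background in no whole group, so signal limits what can be read for it.

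The culture comparison called 0 members, but 1 with normexp background correction, with the brightest probe of a gene, with the slide as a block and with only the groups compared, 4 with array weights, and 0 to 1 with single arrays left out (1 without A_FACS replicate 1, A_FACS replicate 2 or NB_Stim replicate 3). The cytokine comparison called 1, but 2 with only the groups compared, 4 with array weights, 0 with cultured replicates 1 and 2 averaged, 0 after Tukey's test with Benjamini-Hochberg adjustment, and 0 to 2 with single arrays left out (0 without NB_Control replicate 2, 2 without either A_FACS array). Stimulated culture against NB_FACS called 2, but 1 with only the groups compared, with replicates averaged and after Tukey's test with Benjamini-Hochberg adjustment, 6 with array weights, and 1 to 2 with single arrays left out (1 without NB_FACS replicate 1, NB_FACS replicate 2 or NB_Stim replicate 3). Age called 3, but 1 with only the groups compared, 0 after Tukey's test with Benjamini-Hochberg adjustment, and 0 to 3 with single arrays left out (0 without A_FACS replicate 1, 1 without A_FACS replicate 2 or NB_FACS replicate 3). The F test over 4 groups called 3, 6 with array weights, and 3 to 4 with single arrays left out. The methods' test with Tukey's adjustment at the study's 5% level called 0, 1, 2 and 2 members. The age call of Il10 was also lost with 75th percentile scaling, without the filter on dim probes, with array weights and with replicates averaged.

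The main fit was unpaired. With the replicate number as a block, the fit called 0 members for culture, 1 for the cytokines, 2 for stimulated culture, 3 for age and 4 by the F test. The block changed no call of a member in the 4 comparisons. Over all genes, the cytokine comparison called 1193 with this block against 666 without it.

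Other counts over all genes that moved by more than 1.5 times were as follows. Array weights gave 12318 for culture (5811), 5525 for the cytokines, 14036 for stimulated culture (6082) and 15736 for the F test (9549), the value above in parentheses. Tukey's test with Benjamini-Hochberg adjustment gave 3547 for culture, 183 for the cytokines, 3620 for stimulated culture and 2014 for age (4434). The cytokine comparison called 1009 with normexp, 1476 with the slide block, 118 with replicates averaged, 1590 with Tukey's test alone and 297 to 699 with single arrays left out. Age called 2923 with only the groups compared and 2288 to 5132 with single arrays left out.

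Differences that were not called changed sign as follows. For Arg1 in culture it was -0.085 with cultured replicates 1 and 2 averaged, -1.15 within slide 2 and -0.15 to 0.48 with single arrays left out, and for the cytokines -0.00013 within slide 1. For Nos2 in culture it was 0.041 with array weights, 0.12 with replicates averaged and -0.35 to 0.28 with single arrays left out. Nos2 for the cytokines was -0.19 within slide 2 and -0.071 to 0.43 with arrays left out, and for stimulated culture -0.23 within slide 2 and -0.11 to 0.40. Nos2 for age was 0.23 with the replicate or the slide block, 0.31 with array weights, 0.28 within slide 1 and -0.23 to 0.28. Retnla in culture was 0.080 within slide 2 and -0.10 to 0.018, and for age 0.059 with 75th percentile scaling, 0.046 with array weights and -0.091 to 0.066. Il4ra in culture was -0.21 within slide 2, and for the cytokines -0.11 with 75th percentile scaling, -0.071 with array weights, -0.028 within slide 1 and -0.12 to 0.23. Il10 in culture was 0.0030 with normexp, 0.057 with array weights, 0.066 with replicates averaged and -0.27 to 0.17. Socs1 was -0.012 in culture within slide 1 and -0.24 for the cytokines within slide 2. Socs2 in culture was 0.16 on the XM_006513517.1 probe and for age 0.39 on the XM_006513515.1 probe.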
